A study of Arabidopsis thaliana with 4 samples.

Results

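The most abundant transcripts of mock-treated Arabidopsis leaves are described here: the 200 probe sets, of 22746 on the array, with the highest geometric mean signal on the 2 mock arrays. Control probe sets and the annotated plastid and mitochondrial genes were set aside first, as were LHCB4.1, LHCB4.3, LIL3:1, RCA, SBPASE and PRK. Of those set aside, 17 organelle probe sets and 3 of the 6 genes listed by name were bright enough to be members. The plants were wild-type Arabidopsis thaliana of the Col-0 ecotype, grown in soil for 3 weeks at 23 °C with 16 h of light and 8 h of darkness. Rosette leaves were cut off 4 h into the light period and floated for 1 h on water (mock) or on 0.1 mM flavin adenine dinucleotide (FAD), the flavin cofactor of many oxidoreductases. Each treatment had 2 biological replicates, each measured on 1 one-colour Affymetrix array. Every leaf in the comparison was detached and floated, and intact leaves are not analysed here, so all levels are those of cut leaves.

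A green leaf devotes much of its messenger RNA to a small set of proteins. Nuclear genes supply the antenna proteins, many photosystem subunits and the enzymes of carbon fixation, and the proteins are imported into the chloroplast. Alongside them a leaf keeps high levels of transcripts for photorespiration, translation, primary metabolism, the cell wall and defence. Cutting a leaf also triggers jasmonate signalling and other wound responses within the first hour.

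The members were chosen by their mock signals, so their mock levels are a description and not a finding. A signal is the linear intensity that the authors deposited for a probe set on an array. Different probe sets bind with different strength, so the order of members is an order of signals and not of molecule numbers. The brightest member, 264474_s_at, for which the platform annotation lists no gene, stood at 46175 and 47693 on mock replicates 1 and 2. It stood at 52916 and 57988 on FAD replicates 1 and 2, with both FAD arrays above both mock arrays, which overlapped with quantile normalization or median centring. At the limit, the member in place 200 had a geometric mean of 12217 in mock leaves and the first probe set outside had 12188, so the limit cut through a continuous range.

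**Figure D1:**
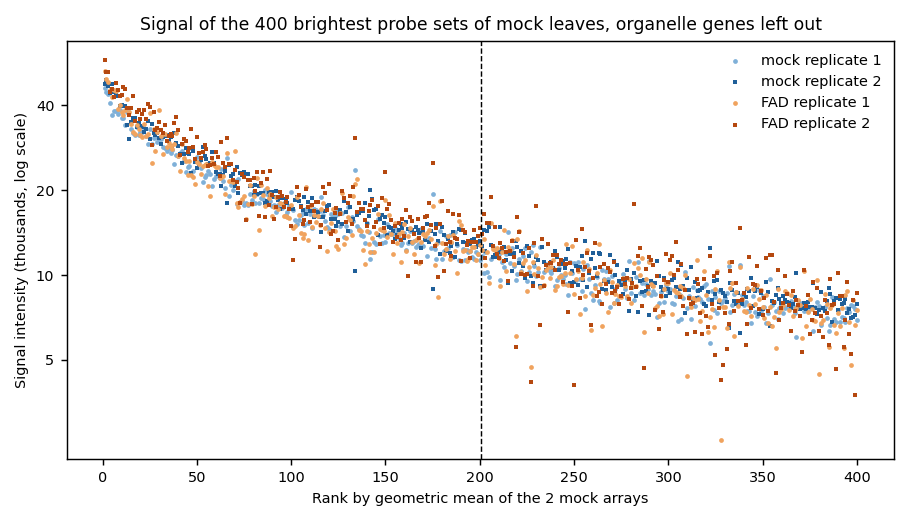
Signal intensity, in units of 1000 on a log axis, of the first 400 probe sets, ordered by the geometric mean of the 2 mock arrays, with 1 point per probe set and array; the dashed line is the limit of 200. Signals fall smoothly from 46928 at place 1 to 12217 at place 200 and 7396 at place 400, with no step at the limit, and the 4 arrays follow the same curve.

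Only some of these transcripts can be named. A single gene was annotated for 51 of the 200 members, or 25.5%, against 59.4% of all 22746 probe sets. Another 3 members matched several genes and 146 had no gene listed. The 30 brightest members were all without a single gene name. Of the first 100 members 18 had one, and of the second 100 there were 33. The functions below are therefore those of a named minority and not of the whole set. They also leave out LHCB4.1 of the antenna and RCA and PRK of carbon fixation, which were bright enough but set aside. Across 16 lists of leaf functions with 238 loci, written for chloroplast, cytosolic, wall and defence roles, 44 loci had a named probe set, 43 of these were tested and 13 were members. For aquaporins, glycine-rich RNA-binding proteins and the methionine cycle no locus of the list was named. No 2 members were probe sets of the same named gene.

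Proteins of the thylakoid membrane, where light energy is captured and converted, formed the largest group with an assigned function, with 10 of the 51. They held places 31 to 145. PSAE-1, a stromal subunit of photosystem I at the ferredoxin docking site, was the brightest named member. Its signals were 30389 and 29214 on the mock arrays and 31042 and 32722 on the FAD arrays. Both FAD arrays of PSAE-1 lay above both mock arrays, by a ratio of geometric means of 1.07. PSAN, a lumenal subunit of photosystem I, stood at 23319 and 27445 in mock leaves and at 22236 and 28399 in FAD leaves. In PSAN the spread between replicates was wider than the distance between treatments.

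Among named members the antenna was represented by LHCB4.2, a minor light-harvesting protein of photosystem II. It stood at 23219 and 28321 in mock leaves and at 25410 and 29752 in FAD leaves, and these ranges overlapped. Small subunits of photosystem II followed. PSBY stood at 23418 and 24682 in mock leaves and at 20638 and 24372 in FAD leaves, and FAD replicate 1 was the low array while the other three lay close together. PSBW, another small membrane subunit, stood at 18356 and 22552 in mock leaves and at 18631 and 22859 in FAD leaves, so that equal replicate numbers gave nearly equal values. AT1G51400, annotated in Arabidopsis as a photosystem II protein of low mass, and PSB27, a lumenal factor of photosystem II assembly and repair, were the dimmest of the group, with mock geometric means of 15444 and 14899.

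Electron transport and ATP formation came in through AT2G26500, a small subunit of the cytochrome b6f complex, and ATPC1, the gamma subunit of the chloroplast ATP synthase. AT2G26500 stood at 24011 and 25505 in mock leaves and at 22835 and 26039 in FAD leaves. ATPC1 stood at 17807 and 19647 in mock leaves and at 18773 and 17710 in FAD leaves. AT4G01150 encodes CURT1A, which bends the thylakoid membrane at the edges of the grana stacks, and stood at 17700 and 18985 in mock leaves and at 17379 and 15849 in FAD leaves. With the deposited scaling it was the only member of the 10 with both FAD arrays below both mock arrays, as PSAE-1 was the only one with both above. With quantile normalization PSAE-1 overlapped, and AT4G01150, AT2G26500 and PSBY had both FAD arrays below. Of the listed nuclear subunits of photosystems I and II, 5 of 24 loci had a named probe set and all 5 were members.

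Other chloroplast and photorespiratory functions gave 4 named members, in places 114 to 195. AT1G74470, the geranylgeranyl reductase that makes the phytol tail of chlorophyll, stood at 16148 and 16789 in mock leaves and at 16139 and 18164 in FAD leaves. HPR, the peroxisomal hydroxypyruvate reductase of photorespiration, stood at 13013 and 14713 in mock leaves and at 14214 and 15740 in FAD leaves. AT3G11630, a thioredoxin-dependent peroxiredoxin of the chloroplast, stood at 12978 and 12725 in mock leaves and at 13100 and 11714 in FAD leaves. For each of them the treatments overlapped with the deposited scaling. They also did for AT2G43030, a protein of the plastid ribosome, with a mock geometric mean of 12482. With quantile normalization AT1G74470 and HPR had both FAD arrays above both mock arrays. With median centring AT3G11630 and AT2G43030 had both below.

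Proteins of the cell wall and leaf surface were the next largest group, with 8 members. AT1G78040, of the Ole e I and extensin family, stood at 28108 and 31025 in mock leaves and at 31730 and 34108 in FAD leaves. AT2G45180, of the lipid transfer protein family, stood at 22800 and 25003 in mock leaves and at 19136 and 24609 in FAD leaves. ECS1, a cell wall protein, stood at 23766 and 20666 in mock leaves and at 22236 and 29545 in FAD leaves. Of these 3, AT1G78040 had both FAD arrays above both mock arrays with the deposited scaling, and the other 2 overlapped. With quantile normalization AT1G78040 overlapped and AT2G45180 had both FAD arrays below. AT5G62350 and AT5G62360, both of the invertase and pectin methylesterase inhibitor family, were the only pair of named members that are neighbouring protein-coding genes in the TAIR10.1 reference table. AT5G62350 stood at 19073 and 17096 in mock leaves and at 18014 and 19639 in FAD leaves. AT5G62360 stood at 16828 and 16057 in mock leaves and at 14990 and 12534 in FAD leaves, with both FAD arrays below both mock arrays, which overlapped with quantile normalization.

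XTH18, a xyloglucan endotransglucosylase that cuts and rejoins wall polymers, stood at 14895 and 16295 in mock leaves and at 21935 and 16744 in FAD leaves. The higher value of XTH18 on FAD rested mainly on FAD replicate 1. AT1G29670, of the GDSL lipase family, stood at 14320 and 11914 in mock leaves and at 18335 and 15189 in FAD leaves. Its treatments did not overlap with the deposited scaling but did with quantile normalization. EXLA1, an expansin-like protein, completed the group with a mock geometric mean of 15512.

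Transcripts of jasmonate and defence proteins gave 6 members, in places 90 to 188. AT5G05600 and AT2G38240 encode jasmonate-induced oxygenases, which inactivate jasmonic acid by hydroxylation. AT5G05600 stood at 17631 and 19639 in mock leaves and at 16225 and 19195 in FAD leaves. AT2G38240 stood at 15555 and 16833 in mock leaves and at 14699 and 19513 in FAD leaves. The thionin gene AT1G66100, which encodes an antimicrobial peptide, stood at 17059 and 14966 in mock leaves and at 12714 and 17276 in FAD leaves. The receptor kinase gene AT1G51805 and the leucine-rich repeat gene AT2G34930 had mock geometric means of 15247 and 13778, and AT2G43530, of the defensin-like family, had 12832. In all 6 the FAD and mock arrays overlapped.

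Cytosolic metabolism, protein synthesis and folding gave 5 members. AT5G54940, a translation initiation factor of the SUI1 family, stood at 21426 and 28413 in mock leaves and at 24378 and 27403 in FAD leaves. SAMDC, the S-adenosylmethionine decarboxylase of polyamine synthesis, stood at 18065 and 22734 in mock leaves and at 15762 and 15643 in FAD leaves, with both FAD arrays below both mock arrays. AT3G09440, a heat shock cognate chaperone, stood at 15803 and 13875 in mock leaves and at 16520 and 17624 in FAD leaves. Both FAD arrays of AT3G09440 were above both mock arrays, which overlapped with median centring. The glycolytic enzyme genes TPI and GAPC2, for triose phosphate isomerase and a cytosolic glyceraldehyde phosphate dehydrogenase, had mock geometric means of 12932 and 12833 and overlapped between treatments.

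Cold and dehydration proteins gave 3 members. AT2G23120, of a late embryogenesis abundant protein family, stood at 21918 and 24958 in mock leaves and at 24649 and 24835 in FAD leaves. SRC2, a membrane-associated protein with a C2 domain that is known from cold responses, stood at 15732 and 18260 in mock leaves and at 16389 and 19286 in FAD leaves. COR47, a dehydrin, stood at 16623 and 15128 in mock leaves and at 19562 and 19898 in FAD leaves. Of the 3, COR47 alone had both FAD arrays above both mock arrays. The remaining 15 named members had other roles or none given here. The brightest of these was AT2G25510, at 28286 and 22986 in mock leaves and at 22577 and 32957 in FAD leaves. AT5G16010, of the steroid reductase family, stood at 17812 and 24120 in mock leaves and at 17988 and 21392 in FAD leaves. AT2G46600, a small calcium-binding protein, stood at 15631 and 18472 in mock leaves and at 14926 and 13434 in FAD leaves.

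**Figure D2:**
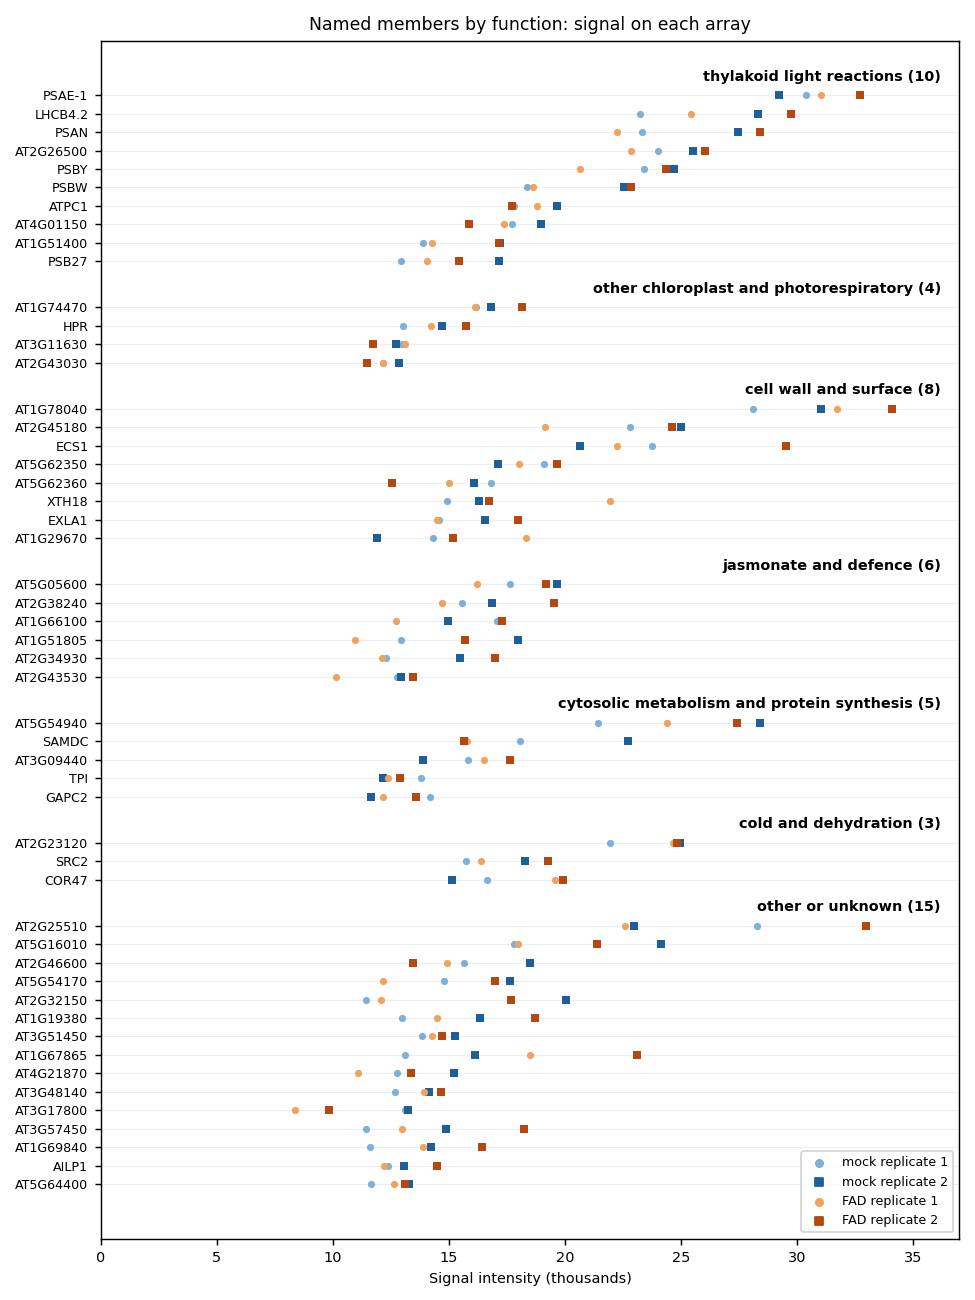
Signal intensity, in units of 1000 on an axis from 0, of the 51 members with a single gene name, 1 row per gene grouped by function with the number of members in brackets; pale points are replicate 1 and dark squares replicate 2, blue for mock and orange for FAD. In most rows the blue and orange marks are interleaved; AT3G17800, SAMDC, COR47 and AT1G67865 are among the rows where they are apart.

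On the FAD arrays the most abundant transcripts of mock leaves were nearly the same set, and in the fit of treatment alone none of them passed the test for a difference. A fit with the replicate number as a block called 2 of them, AT3G17800 and AT1G67865. With 2 arrays per treatment, a member that was not called is not shown to be unchanged. Ordered by the geometric mean of the FAD arrays, which the choice of members did not use, 186 of the 200 were again among the first 200. Sets of 200 chosen on 1 array at a time shared 180 between the 2 mock arrays, 179 between the 2 FAD arrays and 176 to 184 between a mock and an FAD array. The range between treatments took in both values between replicates. The members' share of the summed signal of all probe sets was 23.1% and 24.0% on the mock arrays and 23.3% and 24.9% on the FAD arrays, for 0.879% of the probe sets, and these ranges overlapped.

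FAD and mock leaves were compared with limma on log2 signals over 13648 probe sets above a floor on dim signals, with Benjamini-Hochberg adjustment over all of them. All 200 members were above the floor. Since the mock signals chose the members, the ratio of FAD over mock is not independent of that choice, and the values are read as a description. The number of members with an adjusted p under 0.05 was 0 higher and 0 lower, against a background of 0.0% higher and 0.0366% lower among all probe sets tested. At an unadjusted p under 0.05, limma gave 2 members higher and 2 lower, 1.0% each, against a background of 3.03% higher and 3.84% lower. The smallest limma adjusted p of any member was 0.523.

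Both FAD arrays were above both mock arrays for 41 members, or 20.5%, against a background of 22.0%. Both were below for 20 members, or 10%, against a background of 15%. The first share is near its background and says nothing particular about the members. Both of these counts depended on the scaling between arrays. They were 32 and 40 with quantile normalization, against a background of 19.5% above and 17.5% below. They were 10 and 33 with median centring, against a background of 13.6% above and 22.5% below. The members' share above was under its background with each scaling. Their share below was over its background with quantile normalization and under it with the deposited scaling and median centring. Members chosen on the FAD arrays in place of the mock arrays gave 47 above and 18 below with the deposited scaling. The background was 22.0% and 15%. That choice favours high FAD signals, so its counts are no independent check. The FAD geometric mean exceeded the mock one for 121 members, or 60.5%, against a background of 57.5%. Among the 51 members with a single gene name the arrays were apart for 7 above and 5 below. Among the other 149 they were apart for 34 above and 15 below. The background for both groups was 22.0% above and 15% below, and the counts are not read as a difference between the groups.

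The log2 fold changes of FAD over mock among the members ran from -0.54 to 0.70, and 2 members were at least 1.5-fold higher and 0 at least 1.5-fold lower. The background for such changes was 4.29% higher and 3.72% lower, but over all tested probe sets the fold changes were also less precise. The median standard error was 0.15 for the members and 0.23 for all tested probe sets. The median size of the log2 difference between treatment means was 0.10 for the members and 0.18 for all tested probe sets. The 2 members past 1.5-fold, 245928_s_at and 254232_at, carry no gene name and were picked out after their values were seen. The first stood at 23645 and 10344 in mock leaves and at 21069 and 30672 in FAD leaves. The second stood at 19448 and 8950 in mock leaves and at 17526 and 24862 in FAD leaves. In both the mock replicates differed more than 2-fold and FAD replicate 1 lay between them.

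**Figure D3:**
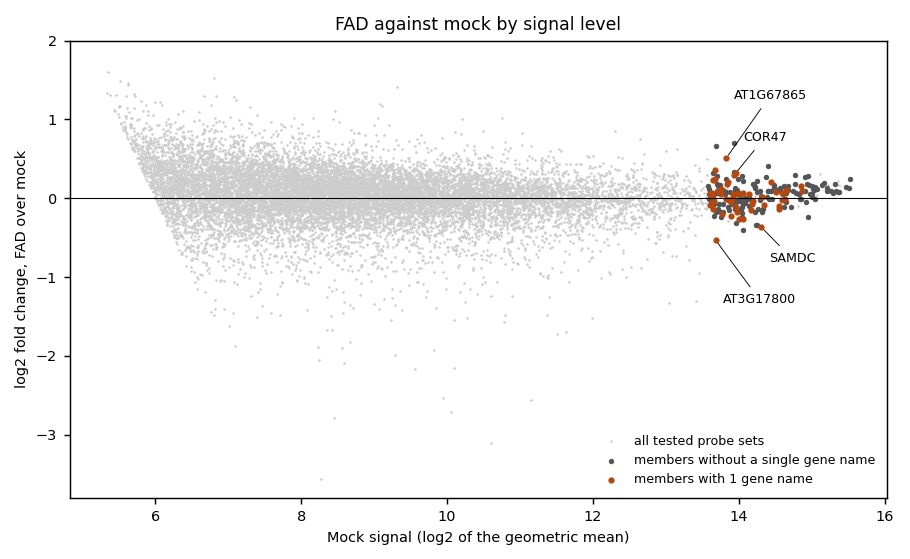
The log2 fold change of FAD over mock against the log2 mock signal for all 13648 tested probe sets (grey), members without a single gene name (dark) and members with 1 gene name (orange). The members form a narrow band between -0.54 and 0.70 at the right end, and AT3G17800 and AT1G67865 are the lowest and highest named members.

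Among named members AT3G17800 had the lowest and AT1G67865 the highest ratio of FAD over mock, and neither passed in the fit of treatment alone. AT3G17800, whose function is not given here, stood at 13094 and 13211 in mock leaves and at 8360 and 9847 in FAD leaves. The 2 mock arrays were nearly equal and both FAD arrays were lower. The log2 fold change was -0.54 ± 0.15 (SE), with a 95% confidence interval from -0.90 to -0.18 (limma adjusted p = 0.523). It moved from place 178 on the mock arrays to place 305 on the FAD arrays, the lowest FAD place of any member. AT1G67865, also without a known role, stood at 13084 and 16121 in mock leaves and at 18496 and 23115 in FAD leaves. Both FAD arrays were above both mock arrays, and within each treatment replicate 2 was higher. The log2 fold change was 0.51 ± 0.18 (SE), with a 95% confidence interval from 0.09 to 0.93 (limma adjusted p = 0.614), and it moved from place 150 to place 80. In a fit with the replicate number as a block, limma called these 2 members, 1 lower and 1 higher, against a background of 1.12% lower and 0.264% higher, and 0 other members.

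The other named members at the low end were SAMDC with -0.37 ± 0.16 on the log2 scale (SE, limma adjusted p = 0.739), AT2G46600 with -0.26, AT5G62360 with -0.26 and AT1G51805 with -0.22. AT1G51805 stood at 12936 and 17971 in mock leaves and at 10932 and 15696 in FAD leaves, and its value turned to 0.018 without mock replicate 2 and to 0.042 without FAD replicate 1. At the high end were AT1G29670 with 0.35 ± 0.17 (SE, limma adjusted p = 0.758), COR47 with 0.32 ± 0.14 (SE, limma adjusted p = 0.75), XTH18 with 0.30 and AT3G57450 with 0.24. AT3G57450 stood at 11408 and 14856 in mock leaves and at 12994 and 18240 in FAD leaves, and its value was -0.0027 without FAD replicate 2. For XTH18 the value was 0.10 without FAD replicate 1. In AT1G51805 and AT3G57450 the FAD and mock arrays overlapped, and in the other 8 of these 10 genes they did not with the deposited scaling. With quantile normalization XTH18, AT1G29670 and AT5G62360 overlapped too. Of all named members with both FAD arrays on one side, AT1G67865 and COR47 above and AT3G17800, SAMDC, AT4G01150 and AT2G46600 below kept it with quantile normalization and with median centring.

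By function, the thylakoid group had a median log2 fold change of -0.014, with 4 of 10 values positive, and the median of the whole tested table was 0.05. The wall and surface group had a median of 0.11, with 6 of 8 positive. The jasmonate and defence group had a median of -0.092, with 2 of 6 positive, and the cold and dehydration group a median of 0.081, with 3 of 3 positive. The background of positive values was 57.5% with the deposited scaling. With quantile normalization 2 of 10, 6 of 8, 2 of 6 and 3 of 3 values were positive in these groups, against a background of 52.9%. Median centring lowers every fold change by the same amount, and 2 of 10, 4 of 8, 0 of 6 and 1 of 3 were then positive. The background with median centring was 43.8%. In each of the 7 groups in the plot of named members by function, the limma fit of treatment alone called 0 members, with the smallest adjusted p of each group between 0.523 and 0.919.

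The members with 1 gene name just inside the limit were GAPC2, AT2G43530, AILP1, AT2G43030 and AT5G64400, with mock geometric means from 12833 down to 12414. Just outside were AT2G15960, EXO, AT1G09310, AT3G47070 and AT1G13930, from 12079 down to 10910. EXO, a cell wall protein of the EXORDIUM family linked to growth, was the only named gene among the 14 probe sets that were in the first 200 on the FAD arrays but not on the mock arrays. It stood at 11414 and 12771 in mock leaves and at 15288 and 18929 in FAD leaves, and moved from place 206 to place 109. The members that left the first 200 on the FAD arrays included AT3G17800, AT4G21870, AT2G43530 and AT2G43030, and AT4G21870, of the small heat shock protein family, moved from place 158 to place 206.

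With the deposited scaling, replicate number separated the members more often than treatment did. For 101 of the 200 members, 50.5%, both replicate 2 arrays were above both replicate 1 arrays, against a background of 16.3%, and for 7 members they were below, against 22.5%. The next 200 probe sets by mock signal had both replicate 2 arrays above for 67, or 33.5%. Relative to the mean of the mock arrays, the median member stood at -0.054 and 0.054 on mock replicates 1 and 2 and at -0.020 and 0.13 on FAD replicates 1 and 2 on the log2 scale. FAD replicate 2 was thus the array with the highest signals at the bright end. With quantile normalization, which gives all arrays a common distribution, 44 members had both replicate 2 arrays above, or 22.0%, against a background of 19.4%. In that scaling 35 members had both below, against 2536 of the 13648 tested probe sets, beside 32 above and 40 below for treatment. With median centring 131 members had both replicate 2 arrays above, or 65.5%, against a background of 23.7%. In that scaling 2 members had both below, against 2015 of the 13648 tested probe sets. In the replicate comparison with the deposited scaling, limma called 0 members and 0 probe sets in all. At an unadjusted p under 0.05 limma gave 30 members, or 15%, against a background of 8.1%. That comparison was not fitted with the other scalings. Nothing in the labels ties equal replicate numbers to a shared day or plant, and the part of the number in the members' values was not tested.

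The median log2 fold change of FAD over mock was 0.057 for the members and 0.05 for all tested probe sets. It was 0.097 for the 50 brightest members and -0.021 for those in places 101 to 150. The members' median was -0.015 without mock replicate 1, -0.020 without FAD replicate 2 and 0.13 without FAD replicate 1, so 1 array decided its sign. With median centring it was -0.032, beside -0.040 for all tested probe sets. With quantile normalization it was -0.0040, but that scaling draws the brightest probe sets of all arrays to the same values.

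**Figure D4:**
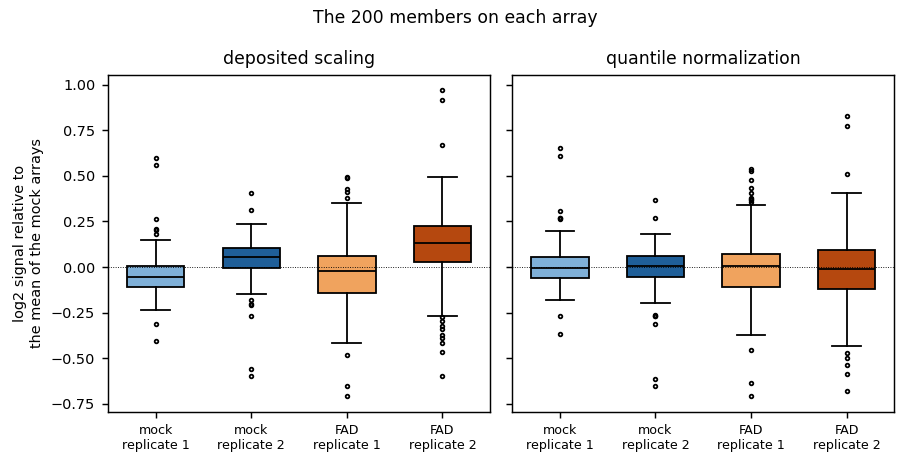
Log2 signal of the 200 members on each array relative to the mean of the 2 mock arrays, with the deposited scaling (left) and after quantile normalization (right); boxes span the quartiles, the line is the median, whiskers reach 1.5 times the box and points lie beyond. With the deposited scaling the medians are -0.054, 0.054, -0.020 and 0.13, and after quantile normalization all 4 lie between -0.012 and 0.0041.

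Among named members AT2G32150, of a hydrolase family, differed most between replicates in one direction under both treatments, at 11417 and 20024 in mock leaves and at 12047 and 17666 in FAD leaves. The ratio of replicate 2 over replicate 1 was 1.75 in mock and 1.47 in FAD leaves. The other genes that the same rule named were AT1G51805, with ratios of 1.39 and 1.44, AT3G57450, with 1.30 and 1.40, AT2G34930, with 1.26 and 1.40, and AT1G19380, with 1.26 and 1.29. In all 5 both replicate 2 arrays were above both replicate 1 arrays. Replicate 2 was the higher array for 146 of the 200 members in mock leaves and for 164 in FAD leaves, so these 5 genes share a direction with most of the set.

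As a check of the labelled tissue, markers of other organs and cell types were looked up by locus. A named probe set existed for 1 of 4 guard cell, 1 of 5 phloem, 1 of 4 epidermis, 1 of 4 dividing cell and 2 of 4 root loci. No named marker was a member, but most members had no gene name, so this check is weak. The root hair expansin gene EXPA7 and the centromere histone gene HTR12 of dividing cells reached at most 53.3 and 54.8 on any array, and AT1G67750 of the epidermis list at most 73.3. The root beta-glucosidase gene PYK10 was measurable, at 1676 and 400.3 in mock leaves and at 1027 and 1771 in FAD leaves. The guard cell gene FMA was dim, at 137.1 and 133.3 in mock leaves and at 160.3 and 255.9 in FAD leaves, with both FAD arrays above both mock arrays (limma adjusted p = 0.763). The phloem sugar transporter gene SWEET11 stood at 6029 and 4438 in mock leaves and at 6852 and 3787 in FAD leaves. The treatments overlapped for PYK10 and SWEET11, and the part of other cell types in the members' values was not tested. The xylem, trichome, myrosin cell, flower and seed lists had no named probe set. Leaves with fewer cells of a type and cells with less RNA of a gene cannot be told apart on these arrays.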

How the data were processed

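Total RNA was labelled with biotin by a 3' kit and hybridised to 4 one-colour arrays, per the labels' protocols. The deposited values are linear signal intensities made with GCOS, per the submitters' processing notes. Which GCOS version and probe summary were used is not given in the sources. The 2% trimmed means differed by 0.000764%, so the authors' scaling was kept. The number of arrays limits the precision.

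Names came from the platform annotation, with symbols brought up to date from TAIR10.1, in which 49 of 51 single-gene members were found. A mean log2 signal at or above the 40th percentile (a signal of 63.59) was required for testing. limma 3.58.1 in R 4.3.3 fitted the treatment with a mean-variance trend and gave adjusted p-values by Benjamini-Hochberg. The fit was first tested on simulated data with known changes at all tested signal levels. At a limma adjusted p under 0.05 it recovered 19.6% of 2-fold and 82.9% of 4-fold changes. All the members' fold changes were smaller than 2-fold. An exact permutation of 2 against 2 arrays cannot give p under 0.333.

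The members, lists and functions were chosen with earlier results of these data known, and each function was assigned once the members were known. Genes with values were the 20 brightest single-gene members, the 5 brightest of each function, the 5 highest and 5 lowest fold changes, the 5 on each side of the limit and the 5 with the largest replicate difference; others are given without such a rule. The labels call the replicates biological without naming separate plants, so the p-values reflect no more than the spread among these 4 samples, which may be technical.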

Additional observations from a re-analysis of the deposited data

How the results depend on the processing

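No member was called in either direction by limma with quantile normalization, median centring, 32 added before the log, no filter, the filter at the 60th percentile, no trend, the robust fit, array weights or any array left out. With the replicate number as a block limma called 1 member higher, AT1G67865 (adjusted p = 0.0404), and 1 lower, AT3G17800 (adjusted p = 0.0487), against a background of 0.264% higher and 1.12% lower. Deviations of same-numbered arrays correlated at 0.147 over the members and 0.219 over all tested probe sets. A correlation leaves out any shift that the probe sets share, and only 2 pairs exist. Whether equal replicate numbers mark a pairing was not tested.

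Members with both FAD arrays above both mock arrays numbered 41, and 20 had both below (background 22.0% above and 15% below). The counts were 32 and 40 with quantile normalization (background 19.5% above and 17.5% below). They were 10 and 33 with median centring (background 13.6% above and 22.5% below). They were 26 and 8 for the first 100 and 71 and 66 for the first 400 probe sets. These used the deposited scaling, with its background of 22.0% above and 15% below. With 1 array left out they ran from 47 to 120 above and from 30 to 73 below. A single array separates more easily by construction, and no background was computed for these ranges. The median log2 fold change, 0.057, was -0.032 with median centring and ran from -0.020 to 0.13 with 1 array left out. The members' share of signal, FAD minus mock, was 0.602 percentage points and -0.15 with quantile normalization, less than the replicate SD of 0.925 away.

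Other choices of members moved none of these counts by over 1.5 times. Members were chosen over all 4 arrays, the FAD arrays or either mock array alone. The set over all 4 arrays shared 192 members with the main one and the FAD set 186. The sets of mock replicates 1 and 2 shared 188 and 192, so similar counts follow largely from the overlap. A further choice left out an unnamed probe set numbered among plastid probe sets (chosen after seeing the data). A choice that uses the FAD arrays favours high FAD signals, so its counts are no independent check. Of the 10 named genes with the highest and lowest fold changes, picked by these same values, 8 kept their direction in 13 alternatives each. The others were AT1G51805, at 0.018 without mock replicate 2 and 0.042 without FAD replicate 1 and from -0.48 to 0.042 with 1 array left out, and AT3G57450, at -0.0027 without FAD replicate 2 and from there to 0.49 with 1 array left out. The cause was not tested. Keeping the direction was largely fixed in advance and is no independent check. The filters, the trend setting, the robust fit, array weights and the replicate block leave the fold change itself unchanged. In the 8 genes that kept their direction the FAD and mock arrays did not overlap, so leaving out 1 array could not reverse it. Of 68 mock signals of 34 genes recomputed with quantile normalization or median centring, 62 moved by less than 1 SD.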
